A study of Mus musculus with 8 samples.

Results

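The genes described here are 4 ligands of the bone morphogenetic protein (BMP) family, Bmp2, Bmp4, Bmp6 and Bmp7, and 6 secreted proteins that bind BMPs outside the cell, Nog, Chrd, Grem1, Bmper, Fst and Twsg1. They were taken by name from a table of 55223 gene loci, and all 10 names were found. The libraries came from cultured mouse muscle stem cells, the precursors of new muscle fibres, given a short BMP pulse to find the genes that respond directly. Of the 10 genes, 7 reached a mean of 0.5 TPM over the 8 libraries and were tested together with all 16908 loci above that level, whereas Bmp2, Bmp4 and Bmp7 lay below it. TPM, the abundance of a transcript within its library, counts reads per length as a share of the library's total, so the levels of different genes can be set side by side.

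Each of the 4 groups held 2 libraries. BMP4 cultures received 100 ng/ml BMP4 for 1 h and were made from cell isolations 48 and 54, which also gave their vehicle cultures (vehicle_a). BMP6 cultures received 100 ng/ml BMP6 for 1 h and were made from isolations 75 and 77, which also gave their vehicle cultures (vehicle_b). The labels give these numbers after the letters IP, which they do not spell out, and each number is called an isolation here. Vehicle was 4 mM HCl with 0.1% BSA. All 4 groups were wild-type C57BL/6J cells from female mice of 6 to 8 weeks, grown on Matrigel for 2 days. All of them, vehicle included, then spent 6 h without serum but with 200 ng/ml of BMPR-IA-Fc, the ligand-binding part of a BMP receptor joined to an antibody tail, so that no culture was free of an added BMP binder. The labels call the replicates biological but do not say how many mice gave an isolation, so the p-values speak of the spread among the libraries, which may be partly technical.

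BMPs are secreted as dimers that bring type I and type II receptors together, after which receptor-activated SMAD proteins enter the nucleus. Noggin (Nog), chordin (Chrd) and gremlin-1 (Grem1) hold the ligands away from the receptors. Twisted gastrulation (Twsg1) and Bmper join such complexes and are known to favour or to limit signalling depending on the setting, and follistatin (Fst) binds activins and some BMPs. In muscle, BMP signalling is known to keep activated stem cells dividing and to delay their differentiation, and Nog is a known BMP-induced feedback inhibitor in several cell types.

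Of 12 markers of the labelled cell type, 11 reached a mean of 0.5 TPM. The other, Calcr, was at most 0.279 TPM in any library. Pax7, the transcription factor that marks muscle stem cells, lay between 11.1 and 16.9 TPM and the myogenic factor Myod1 between 421.8 and 838.5 TPM in the 8 libraries. Estimated depth was 48012828 to 58002740 reads of 50 nt per library. Of 8 known BMP-SMAD target genes, all tested, 3 were called higher over both BMPs without the block and 5 with it, and none lower. The mean log2 changes over both BMPs were 1.68 (SE 0.13) for Id1, an inhibitor of myogenic factors, 1.94 (SE 0.15) for Smad6 and 2.69 (SE 0.16) for Smad7, both inhibitors of the pathway inside the cell, with adjusted p = 0.0212, 0.0212 and 0.00566 in limma (no block) after Benjamini-Hochberg adjustment. With the block Id3 and Smad9 passed too, while Id2, Bambi and Atoh8 passed in neither fit.

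Ligand transcripts were scarce in every culture, and no ligand reached 2 TPM in any library. Bmp6 was the most abundant of them in isolations 75 and 77, with 1.57 and 1.19 TPM in BMP6 libraries and 1.65 and 1.03 TPM in vehicle_b libraries. In isolations 48 and 54, Bmp6 had 0.195 and 0.295 TPM in BMP4 libraries and 0.191 and 0.153 TPM in vehicle_a libraries. All 4 libraries of isolations 75 and 77 lay above all 4 of isolations 48 and 54, as they did for 25.9% of the tested loci. BMP6 and vehicle_b libraries overlapped. Bmp6 lies on the plus strand of chromosome 13 from 38529083 to 38684278 (GRCm39). The last of its 7 exons, of 1384 nt, shares 224 nt with Txndc5 on the other strand, which stood between 90.0 and 107.1 TPM, and the values were computed without a strand option. From exons 1 to 6 alone, Bmp6 had 1.34 and 1.10 TPM in BMP6 libraries, 1.71 and 0.841 TPM in vehicle_b libraries, 0.189 and 0.40 TPM in BMP4 libraries, and 0.211 and 0.154 TPM in vehicle_a libraries. The gap between the 2 experiments was thus present outside the shared stretch.

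Bmp4 and Bmp2 encode closely related ligands that share receptors. Bmp4 (minus strand of chromosome 14, 46620977 to 46628126) had 0.321 and 0.232 TPM in BMP4 libraries against 0.392 and 0.406 TPM in vehicle_a libraries, and 0.520 and 0.577 TPM in BMP6 libraries against 0.662 and 0.551 TPM in vehicle_b libraries. All 4 libraries of isolations 75 and 77 lay above all 4 of isolations 48 and 54, as in 25.9% of the tested loci. Both BMP4 libraries lay below both vehicle_a libraries, and BMP6 and vehicle_b libraries overlapped. How many loci lay lower in this way was not counted. In the opposite direction, 10.3% of the tested loci lay above in both BMP4 libraries. The tested loci have a mean of at least 0.5 TPM and so leave out Bmp4 and Bmp2. Bmp2 (plus strand of chromosome 2, 133394079 to 133404805) had 0.301 and 0.336 TPM in BMP4 libraries against 0.207 and 0.236 TPM in vehicle_a libraries, and 0.310 and 0.386 TPM in BMP6 libraries against 0.275 and 0.275 TPM in vehicle_b libraries. Bmp2 was higher in the stimulated library of all 4 isolations, by 0.06 to 0.19 on the log2(TPM + 0.5) scale, which understates changes of such low genes. Of the tested loci, again a set without Bmp2, 8.19% were higher in all 4. These levels rest on an estimated 29.4 to 49.0 reads per library for Bmp2 and 17.6 to 51.9 for Bmp4. With the filter lowered to a mean of 0.1 TPM and the isolation as a block, neither passed: the mean log2 change over both BMPs was 0.16 for Bmp2 (95% interval −0.08 to 0.39, limma adjusted p = 0.567) and −0.15 for Bmp4 (−0.40 to 0.11, limma adjusted p = 0.622). Bmp7 (minus strand of chromosome 2, 172709805 to 172782114) was listed at 0 in 7 libraries and at 0.0293 TPM, about 4.02 reads, in replicate 2 of vehicle_a; a count of 0 allows up to 0.0205 to 0.0236 TPM, the worth of 3 reads.

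Summed over their members, the binders were far more abundant than the ligands, although single ligands stood above single binders in some groups. Twsg1 was the most abundant of the 10 genes in every group, with 15.6 and 16.5 TPM in BMP4 libraries, 15.4 and 15.3 TPM in vehicle_a libraries, 14.3 and 13.8 TPM in BMP6 libraries and 13.7 and 14.0 TPM in vehicle_b libraries. It was also the most even of the 10. The other 5 binders together came to 19.5 and 40.8 TPM in BMP4 libraries, 13.4 and 25.9 TPM in vehicle_a libraries, 12.8 and 18.0 TPM in BMP6 libraries and 8.38 and 12.2 TPM in vehicle_b libraries. The 4 ligands together came to 0.817 and 0.863 TPM in BMP4 libraries, 0.791 and 0.823 TPM in vehicle_a libraries, 2.40 and 2.15 TPM in BMP6 libraries and 2.59 and 1.86 TPM in vehicle_b libraries. The stimulated library held more of the 5 binders, taken as a sum, than the vehicle library of its isolation in all 4 isolations, whereas the ligand sums of isolation 75 ran the other way. That binder sum includes Nog, which was higher in each stimulated library. The other binders did not rise as a set in every isolation. Chrd, Grem1 and Bmper were lower and Fst higher with the pulse in isolation 48. In isolation 75 Bmper and Fst were lower and Chrd and Grem1 higher. In isolations 54 and 77 Chrd, Grem1, Bmper and Fst were all higher with the pulse.

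**Figure D1:**
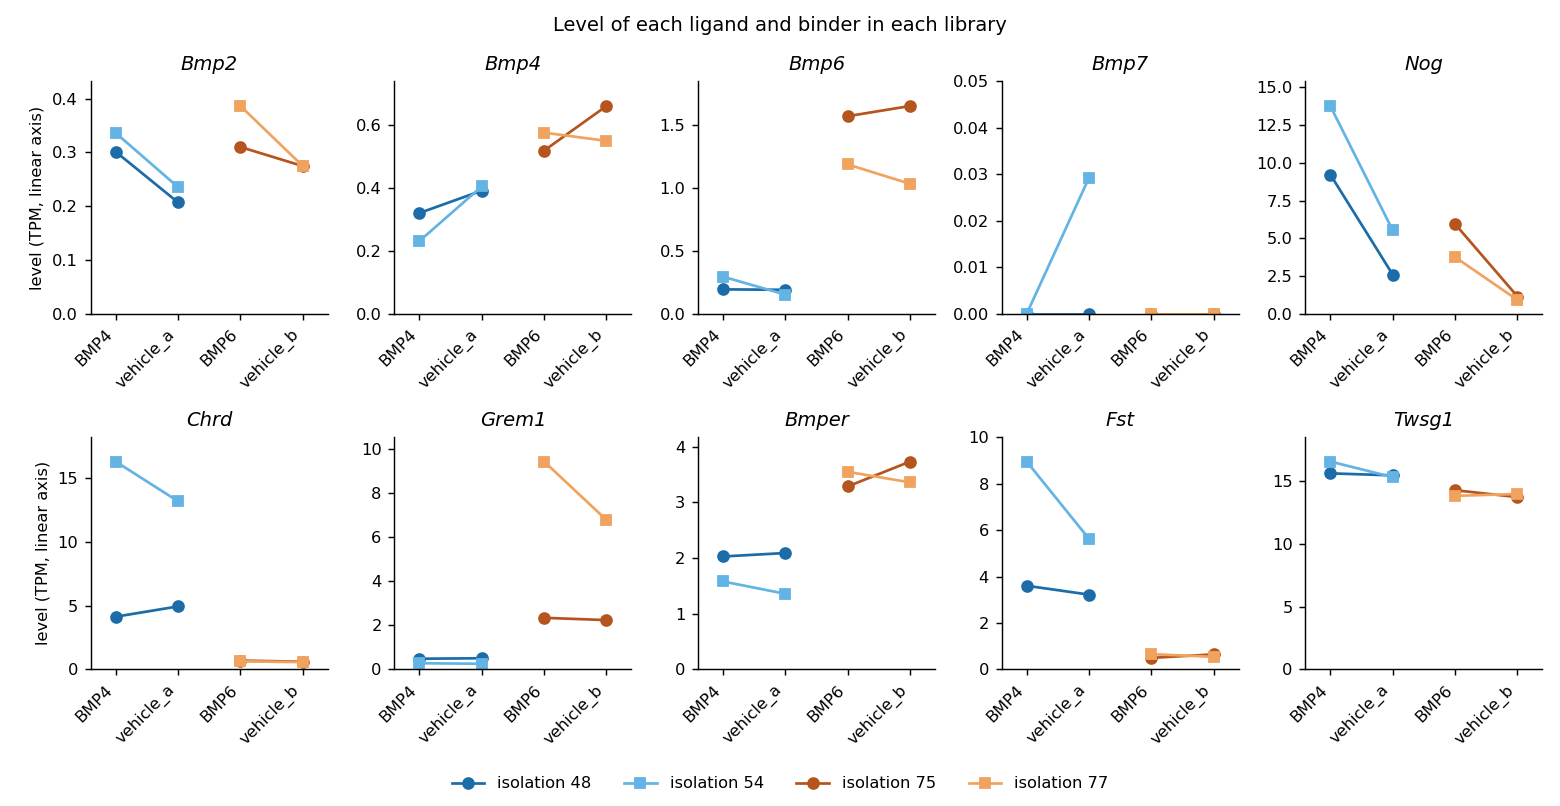
Level in TPM (linear axes from 0, a scale of its own in each panel) of the 4 ligands and 6 binders in the BMP4, vehicle_a, BMP6 and vehicle_b libraries, with a line joining the 2 libraries of an isolation. Nog stood higher in the stimulated library of all 4 isolations. Chrd, Fst, Grem1, Bmper, Twsg1, Bmp4 and Bmp6 separated isolations 75 and 77 from isolations 48 and 54. Of the tested loci, 25.9% lay above and 29.7% below in isolations 75 and 77 in the same way.

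Nog was the only member called higher with the pulse, and it passed the test only in fits that set each culture against the vehicle culture of its own isolation. Its transcript (minus strand of chromosome 11, 89191464 to 89193158) had 9.22 and 13.8 TPM in BMP4 libraries against 2.60 and 5.54 TPM in vehicle_a libraries, and 5.94 and 3.76 TPM in BMP6 libraries against 1.15 and 0.918 TPM in vehicle_b libraries. The stimulated and vehicle libraries did not overlap within either experiment, a pattern that 10.3% of the tested loci showed for BMP4 and 10.6% for BMP6 in the upward direction. Within isolations 48, 54, 75 and 77 the stimulated library held 3.55, 2.49, 5.17 and 4.09 times the TPM of its vehicle library. A higher value in the stimulated library of all 4 isolations was seen in 8.19% of the tested loci. The levels behind these ratios were an estimated 56.2 to 860.3 reads.

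In group means, Nog stood at 11.5 ± 3.21 TPM in BMP4 and 4.07 ± 2.08 TPM in vehicle_a cultures, and at 4.85 ± 1.55 TPM in BMP6 and 1.03 ± 0.164 TPM in vehicle_b cultures (SD, n = 2 each). With the isolation as a block, which compares each stimulated culture with the vehicle culture of the same cells, Nog rose by a mean log2 change of 1.61 over both BMPs (SE 0.10, 95% interval 1.34 to 1.88, limma adjusted p = 0.0122). For BMP4 alone the blocked log2 change, 1.44 (SE 0.15), passed with a limma adjusted p of 0.0407. For BMP6 alone it was larger, 1.78 (SE 0.15), but its limma adjusted p of 0.0511 missed the threshold of 0.05. Nog was the only one of the 7 tested members called for BMP4, where 0.633% of all loci were called in that fit (0.544% higher), and for both BMPs, where 0.674% were (0.627% higher). For BMP6 none of the 7 was called by limma, beside 0.148% of all loci (0.136% higher), and Nog was the 1 member with an unadjusted p under 0.05. The call for both BMPs passed without isolation 48 (limma adjusted p = 0.0276) and without isolation 54 (0.0305), but not without isolation 75 (0.0869) or isolation 77 (0.0642), and the call for BMP4 was lost without any 1 isolation (limma adjusted p between 0.089 and 0.11) and with the filter lowered to 0.1 TPM (0.0616).

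Without the block, in the test with group means only, the same log2 changes carried larger errors. For both BMPs the SE of Nog was 0.27 and the limma adjusted p was 0.26, for BMP4 0.37 and 0.898, and for BMP6 0.37 and 1. None of the 7 members was called then by limma in any of these 3 comparisons, beside 0.071%, 0.0237% and 0.0118% of all loci, and Nog was the 1 member with an unadjusted p under 0.05 in each. When limma's voom method was run on reads estimated from the deposited coverage, with the block, Nog was called for BMP4 (log2 change 1.51, adjusted p = 0.00452), BMP6 (2.22, adjusted p = 0.0253) and both (1.86, adjusted p = 0.00216), and no other member was. That method called 6.15% of all loci for BMP4 (3.47% higher), 0.432% for BMP6 (0.390% higher) and 2.05% for both (1.73% higher). Without the block voom called none of the 7 members, beside 0.0118%, 0.0177% and 0.0828% of all loci.

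The size of the Nog response did not differ detectably between the ligands. The BMP6 response minus the BMP4 response was 0.33 on the log2 scale, with a 95% interval of −0.21 to 0.87 in the blocked fit (SE 0.21, limma adjusted p = 0.536), and an interval that wide holds differences in either direction. In the fit without the block the difference turned to −0.15 without vehicle_a replicate 2. In the blocked fit it stayed positive when single isolations were left out. None of the 7 members was called in this comparison by limma with or without the block, nor by voom, and none had an unadjusted p under 0.05 in limma. The share of all loci called was 0 with limma in both fits, with 2251 loci at an unadjusted p under 0.05 in the blocked fit, and 0.177% with voom and the block (0.0355% higher). Ligand and experiment coincided in this design, so a difference between BMP4 and BMP6 and one between the 2 pairs of isolations cannot be told apart.

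**Figure D2:**
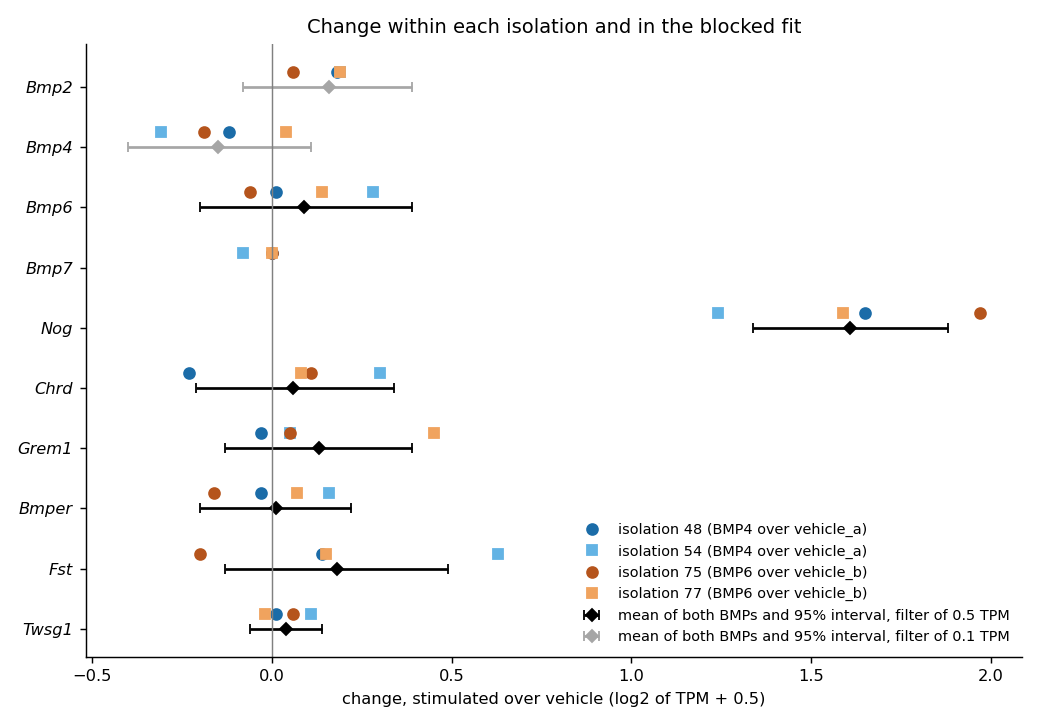
Change of each gene, stimulated over vehicle, on the log2(TPM + 0.5) scale. Coloured points show each isolation, and diamonds with bars show the mean over both BMPs in the blocked fit with its 95% interval (grey for Bmp2 and Bmp4, fitted with the filter at 0.1 TPM; Bmp7 was too low to fit). Nog lay between 1.24 and 1.97 in the 4 isolations, and the intervals of the other genes shown include 0.

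No change with the pulse was called for the other binders. Over both BMPs the blocked log2 change was 0.06 for Chrd (95% interval −0.21 to 0.34), 0.13 for Grem1 (−0.13 to 0.39), 0.01 for Bmper (−0.20 to 0.22), 0.18 for Fst (−0.13 to 0.49) and 0.04 for Twsg1 (−0.06 to 0.14), and 0.09 for the ligand Bmp6 (−0.20 to 0.39). Each of these intervals ends below the lower end of that of Nog. The signs of these small values were not stable. In the test without the block, Chrd and Fst turned to −0.40 and −0.12 without BMP4 replicate 2, and Chrd to −0.27 without vehicle_a replicate 1. Grem1 turned to −0.32 without BMP6 replicate 2 and to −0.22 without vehicle_b replicate 1, and Bmp6 to −0.03 without vehicle_b replicate 2. Bmper was negative without BMP4 replicate 1, vehicle_a replicate 2, BMP6 replicate 2 or vehicle_b replicate 2, the lowest value being −0.11. In the blocked fit Chrd turned to −0.07 and Bmper to −0.04 without isolation 54, and Bmper to −0.05 without isolation 77. Among these 6 genes the largest change within a single isolation, on the log2(TPM + 0.5) scale, was that of Fst in isolation 54, with 8.95 TPM in the BMP4 library and 5.62 TPM in the vehicle_a library, but in isolation 75 Fst had 0.498 TPM in the BMP6 library and 0.648 TPM in the vehicle_b library.

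The unstimulated cultures of the 2 experiments stood further apart in Bmp6, Chrd, Grem1, Bmper and Fst than the pulse moved these genes. For Nog the sizes were alike, with a log2 change of −1.50 between the vehicles and 1.61 over both BMPs. Vehicle_b cultures held more Bmp6, Grem1 and Bmper and less Chrd, Fst and Nog than vehicle_a cultures, and 6 of the 7 tested members were called by limma, beside 27.2% of all loci (1799 higher and 2803 lower). With library medians aligned the calls over all loci were 2742 higher of 5015, and the same 6 members were called. Voom called 5 of them, all but Grem1, beside 24.9% of all loci. In bulk RNA, fewer cells of a type and less RNA per cell cannot be told apart. Nor can the experiment, its isolations and any other circumstance of the cultures, because they coincide, and no block could be used for this comparison.

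Chrd, which cages BMPs until proteases of the tolloid group cut it, lies on the plus strand of chromosome 16 from 20551877 to 20561134. It had 0.606 and 0.572 TPM in vehicle_b libraries against 4.93 and 13.2 TPM in vehicle_a libraries, and the stimulated libraries resembled their vehicles, with 0.692 and 0.635 TPM in BMP6 libraries and 4.12 and 16.3 TPM in BMP4 libraries. All 4 libraries of isolations 75 and 77 lay below all 4 of isolations 48 and 54, and isolation 54 held the 2 highest values. Chrd was thus lower in vehicle_b by a fitted log2 change of −2.98 (SE 0.65), with a limma adjusted p of 0.0244. Fst (minus strand of chromosome 13, 114588826 to 114595487) showed the same order, with 0.648 and 0.541 TPM in vehicle_b libraries against 3.22 and 5.62 TPM in vehicle_a libraries, and 0.498 and 0.659 TPM in BMP6 libraries and 3.60 and 8.95 TPM in BMP4 libraries. Fst was lower in vehicle_b with a log2 change of −2.13 (SE 0.42) and a limma adjusted p of 0.0198. For Nog the vehicle values above gave a log2 change of −1.50 with an SE of 0.37 (limma adjusted p = 0.0333), while its BMP6 libraries reached the range of the vehicle_a libraries.

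Grem1, a binder of the DAN family with a preference for BMP2, BMP4 and BMP7, ran the opposite way. Its transcript (minus strand of chromosome 2, 113576509 to 113588991) had 2.24 and 6.79 TPM in vehicle_b libraries against 0.509 and 0.259 TPM in vehicle_a libraries, and 2.35 and 9.44 TPM in BMP6 libraries and 0.486 and 0.283 TPM in BMP4 libraries. Both libraries of isolation 77 lay above both of isolation 75, and all 4 lay above those of isolations 48 and 54. Grem1 was higher in vehicle_b by a fitted log2 change of 2.35 (SE 0.67), with a limma adjusted p of 0.0442. Bmper (plus strand of chromosome 9, 23134372 to 23396496) had 3.74 and 3.36 TPM in vehicle_b libraries against 2.09 and 1.36 TPM in vehicle_a libraries, with 3.29 and 3.55 TPM in BMP6 libraries and 2.03 and 1.58 TPM in BMP4 libraries. All 4 libraries of isolations 75 and 77 lay above the rest, and the log2 change was 0.88 (SE 0.21, limma adjusted p = 0.0292). That of Bmp6 was 1.43 (SE 0.24, limma adjusted p = 0.0137). Twsg1 (minus strand of chromosome 17, 66228967 to 66258221) was not called, with a log2 change of −0.15 (95% interval −0.39 to 0.10, limma adjusted p = 0.301), although its 4 libraries of isolations 75 and 77 lay below the other 4. Non-overlap of this kind was common, with 25.9% of the tested loci above and 29.7% below in isolations 75 and 77.

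The count of 6 called members depended on single libraries. It was 0 without vehicle_a replicate 2, without vehicle_b replicate 1 or without vehicle_b replicate 2, and 3 (Bmp6, Grem1 and Fst) without either BMP6 library, which enter the fit only through the shared estimate of spread. Without both libraries of isolation 54 it was 3 (Bmp6, Chrd and Fst), without isolation 48 or without vehicle_a replicate 1 it was 5 (all but Grem1), and without isolation 75 or 77 it was 0, as it was for all loci. The number called over all loci also fell in each fit with 0 or 3 called members, and it rose in those with 5. The falls to 0 or 3 were thus not particular to the members. The 7 fitted log2 changes kept their sign in each of these fits. The stimulated and vehicle libraries of an isolation counted as independent in this test although they deviated together.

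Nog, the only member called with the pulse, had no promoter window to print, nor had Bmp2, Bmp7 or Fst. The promoters of 3 members that separated the experiments in opposite directions are printed here, as the 250 bases before the RefSeq transcript start in GRCm38.p6, a build older than that of the levels. They are from chr16:20732877-20733126 on the plus strand for Chrd, chr13:38345466-38345715 on the plus strand for Bmp6 and chr2:113758649-113758898 on the minus strand for Grem1. Capitals mark the letters of 3 motifs searched on both strands: GGCGCC, a GC-rich element that BMP-activated SMADs can bind, GTCT, the core of the SMAD-binding element, and CANNTG, the E-box of bHLH factors such as MYOD1.
Chrd: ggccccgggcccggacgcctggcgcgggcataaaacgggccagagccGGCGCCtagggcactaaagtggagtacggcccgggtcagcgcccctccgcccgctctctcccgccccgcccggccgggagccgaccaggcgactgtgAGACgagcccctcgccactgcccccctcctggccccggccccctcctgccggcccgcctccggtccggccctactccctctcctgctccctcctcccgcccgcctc
Bmp6: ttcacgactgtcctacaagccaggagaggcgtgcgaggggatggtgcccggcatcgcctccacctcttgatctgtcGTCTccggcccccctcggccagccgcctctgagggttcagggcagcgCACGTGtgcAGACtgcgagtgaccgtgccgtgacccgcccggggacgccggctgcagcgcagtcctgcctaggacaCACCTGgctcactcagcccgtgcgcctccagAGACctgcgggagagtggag
Grem1: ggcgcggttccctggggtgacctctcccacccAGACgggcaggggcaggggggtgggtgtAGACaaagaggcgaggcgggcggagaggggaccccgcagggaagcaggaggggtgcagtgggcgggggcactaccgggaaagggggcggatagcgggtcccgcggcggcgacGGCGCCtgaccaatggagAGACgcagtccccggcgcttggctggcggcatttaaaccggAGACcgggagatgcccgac
No 2 marked motifs overlapped in these windows. GGCGCC occurred once each in the Chrd and Grem1 windows and not in that of Bmp6, and 9.59% of all 32851 RefSeq windows of this length held it. GTCT or its reverse complement AGAC occurred 1 time for Chrd, 3 times for Bmp6 and 4 times for Grem1, and 82.9% of all windows held it. CANNTG occurred 2 times for Bmp6 and not for Chrd or Grem1, and 66.2% of all windows held it. The window of Bmper, which also separated the experiments and is not printed, held GTCT or AGAC 2 times and neither of the other motifs. Whether any of these motifs bears on the levels was not tested.

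Genes of differentiating muscle cells separated the experiments in the same direction as Chrd and Fst. The 8 myocyte genes of the marker list, among them Myog and the fusion factor Mymk, were all called lower in vehicle_b. Of all loci, 27.2% were called in that comparison, 1799 higher and 2803 lower. Their summed level was 595.1 and 814.5 TPM in vehicle_b libraries against 5272 and 16560 TPM in vehicle_a libraries, and 737.9 and 801.3 TPM in BMP6 libraries against 4790 and 16220 TPM in BMP4 libraries. Isolation 54 was thus the highest for these genes as it was for Chrd and Fst. The 12 muscle stem cell markers summed to 1315 and 1716 TPM in vehicle_b libraries against 2762 and 2938 TPM in vehicle_a libraries, and 1474 and 1794 TPM in BMP6 libraries against 2486 and 2753 TPM in BMP4 libraries, and none of the 12 was at 0. They did not move as a set: of 11 tested, 5 were called lower in vehicle_b (Pax7, Itga7, Cdh15, Fgfr4 and Des) and 3 higher (Myf5, Sdc4 and Megf10). Des and Myod1 made up most of the sum. The part of these differences in those of the members was not tested.

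Among markers of cells outside the muscle lineage, several defining genes were at or near 0 while others in the same lists were well detected. The 9 fibro-adipogenic progenitor markers summed to 50.3 and 46.7 TPM in vehicle_b libraries, 84.2 and 174.9 TPM in vehicle_a libraries, 49.2 and 43.9 TPM in BMP6 libraries and 76.0 and 147.1 TPM in BMP4 libraries, carried by Col1a1, Col3a1, Ly6a and Cd34, while Pdgfra, the defining marker, was at most 0.354 TPM in any library. The 6 pericyte markers summed to 15.8 and 16.4 TPM in vehicle_b, 64.9 and 101.6 TPM in vehicle_a, 19.9 and 22.4 TPM in BMP6 and 55.4 and 102.2 TPM in BMP4 libraries, with Rgs5 at most at 0.294 TPM. That sum was carried by Notch3 (up to 55.0 TPM), Cspg4 (33.6), Abcc9 (13.9) and Pdgfrb (10.9). Of the 4 tested pericyte markers, 3 (Notch3, Abcc9 and Pdgfrb) were called lower in vehicle_b, beside 27.2% of all loci called in either direction. The 7 endothelial markers summed to 0.566 to 1.79 TPM, with Tie1 and Emcn listed at 0 in all 8 libraries. Of the 8 immune markers, which summed to at most 18.5 TPM, Itgam made up most of the sum (10.9 to 17.1 TPM), Cd68 lay between 0.919 and 2.01 TPM, and Ptprc, Adgre1 and Tyrobp were listed at 0 in all 8 libraries, and of the 5 adipocyte markers, which summed to at most 0.512 TPM, Adipoq, Cidec and Lep were. The 5 tendon markers summed to 41.7 to 150.8 TPM, nearly all of it Scx, with Tnmd listed at 0, and the 7 Schwann cell markers to 13.2 to 33.5 TPM.

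**Figure D3:**
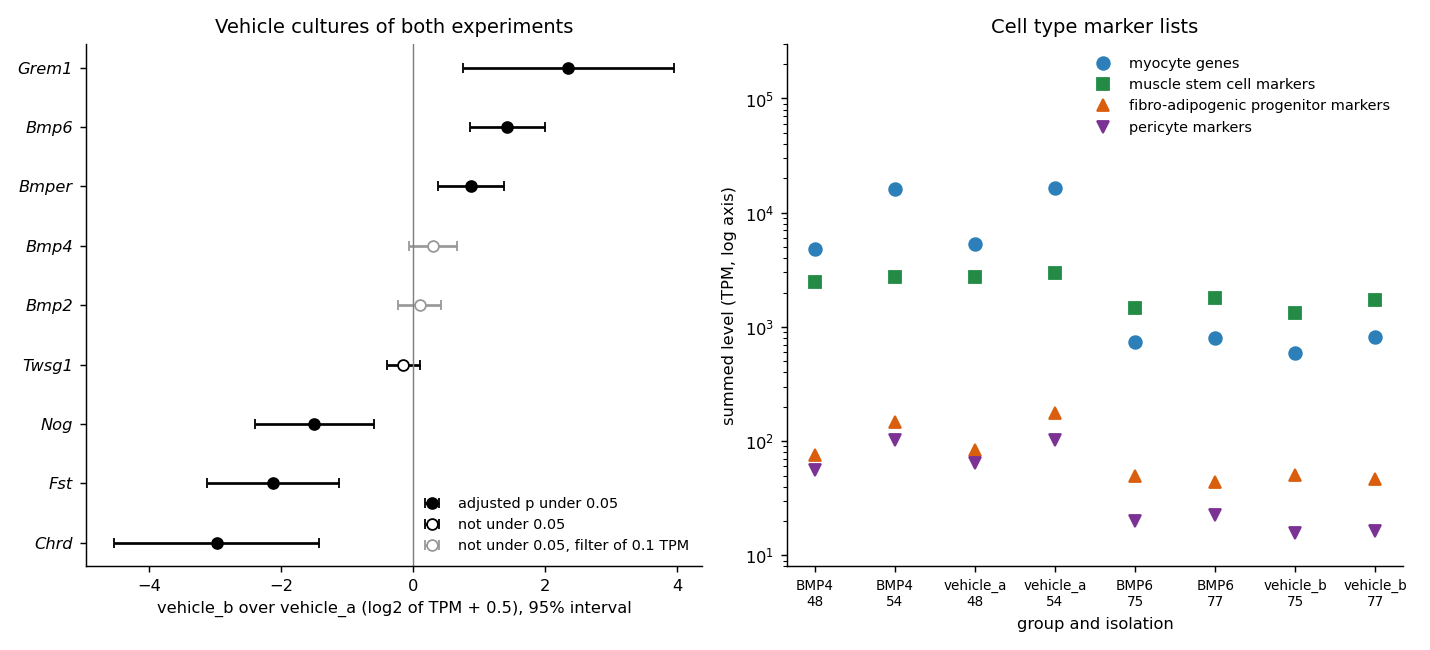
Left, fitted difference of vehicle_b over vehicle_a on the log2(TPM + 0.5) scale with its 95% interval (filled, adjusted p under 0.05; grey, filter at 0.1 TPM). Right, summed level in TPM (log axis) of 4 marker lists in each library, by group and isolation. Grem1, Bmp6 and Bmper lay above 0 and Nog, Fst and Chrd below it, and the myocyte genes were highest in isolation 54 and lowest in isolations 75 and 77.

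As a result of both patterns, the make-up of the binder transcripts differed from library to library. Leaving out Twsg1, Nog made up 47.4% and 33.7% of binder TPM in BMP4 libraries against 19.5% and 21.4% in vehicle_a libraries, and 46.6% and 20.8% in BMP6 libraries against 13.7% and 7.54% in vehicle_b libraries. Chrd made up 21.2% and 39.8% in BMP4 libraries against 36.9% and 50.7% in vehicle_a libraries, but at most 7.23% in any BMP6 or vehicle_b library. Grem1 made up 18.4% and 52.3% in BMP6 libraries against 26.7% and 55.7% in vehicle_b libraries, but at most 3.81% in any BMP4 or vehicle_a library. The share of Nog was higher in the stimulated library of each isolation, and the binder ranked first changed with it in isolation 48 (Nog in the BMP4 library, Chrd in the vehicle_a library) and in isolation 75 (Nog in the BMP6 library, Bmper in the vehicle_b library). In isolations 54 and 77 it was the same in both libraries, Chrd in isolation 54 and Grem1 in isolation 77.

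**Figure D4:**
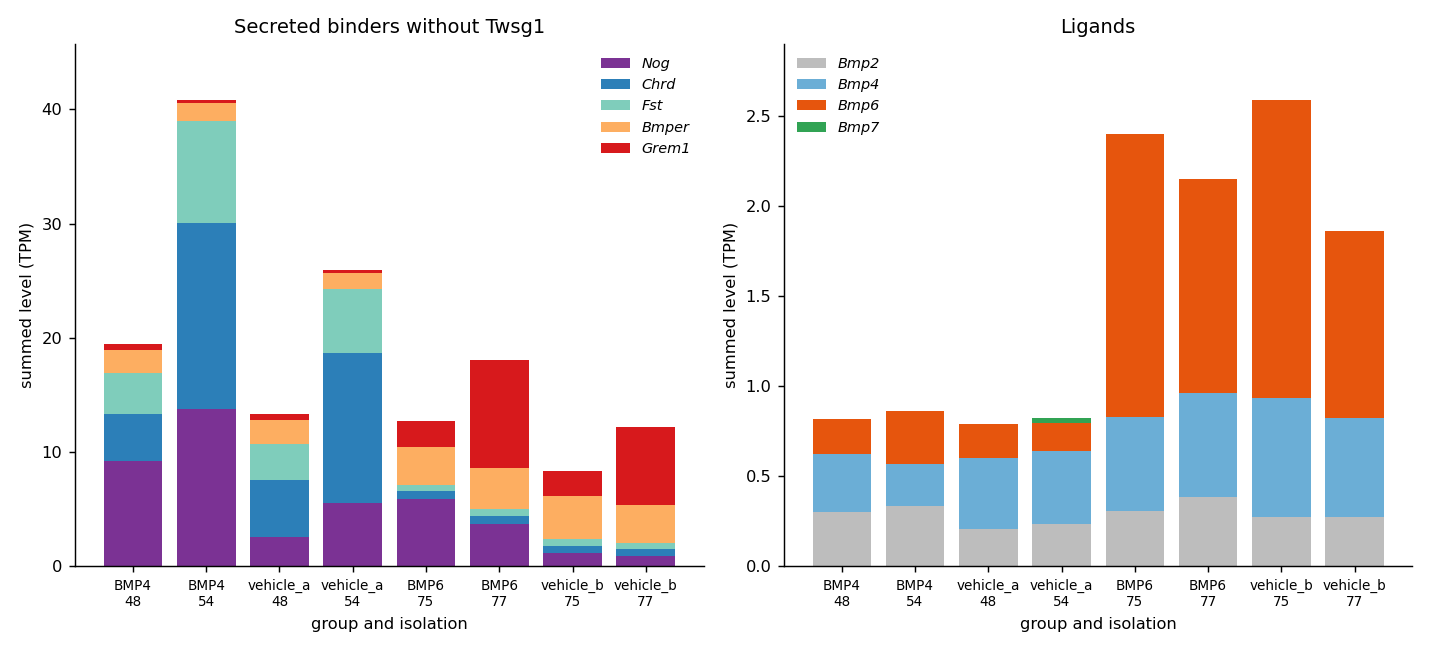
Stacked levels in TPM of the 5 binders other than Twsg1 (left) and of the 4 ligands (right) in each library, by group and isolation. Chrd, Fst and Nog made up most of the binder sum in isolations 48 and 54, Grem1, Bmper and Nog most of it in isolations 75 and 77, and Bmp6 most of the ligand sum in isolations 75 and 77.

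The order of the mean levels followed from this. In BMP4 cultures it was Twsg1, Nog, Chrd, Fst, Bmper, Grem1, Bmp2, Bmp4, Bmp6 and Bmp7, and the ranges of Nog, Chrd and Fst overlapped from neighbour to neighbour, as did those from Grem1 to Bmp6. In vehicle_a cultures Nog stood next after Twsg1, Chrd and Fst, and the ranges of Chrd, Fst and Nog overlapped. In BMP6 cultures the order was Twsg1, Grem1, Nog, Bmper, Bmp6, Chrd, Fst, Bmp4, Bmp2 and Bmp7, with overlap between Grem1 and Nog and from Chrd to Bmp4. In vehicle_b cultures Nog stood next after Twsg1, Grem1, Bmper and Bmp6, and its range overlapped that of Bmp6. Neighbours not named here did not overlap, except Bmp4 and Grem1 in vehicle_a, Grem1 and Bmper in vehicle_b, and Bmp4, Fst and Chrd in vehicle_b.

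Of 21 further secreted BMP binders, 9 were tested and 1, the activin and BMP binder Fstl3, was called higher in the blocked fit for BMP4 and for both BMPs. In that fit 0.544% of all loci were called higher for BMP4 and 0.627% for both BMPs. It had 9.05 and 21.9 TPM in BMP4 libraries against 4.97 and 10.9 TPM in vehicle_a libraries, and 3.23 and 3.23 TPM in BMP6 libraries against 2.58 and 2.87 TPM in vehicle_b libraries. Fstl3 was higher in the stimulated library of all 4 isolations, as were 8.19% of the tested loci, with overlapping BMP4 and vehicle_a ranges. The blocked log2 change was 0.89 for BMP4 (SE 0.09, limma adjusted p = 0.0367), 0.55 for both BMPs (SE 0.06, limma adjusted p = 0.0446) and 0.21 for BMP6 (SE 0.09, limma adjusted p = 0.89), and without the block none of them passed (limma adjusted p = 1). The difference of the responses, −0.68, was not called either (limma adjusted p = 0.26 with the block). The median blocked change of the 9 binders over both BMPs was 0.06, beside −0.01 over all loci.

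By the mean over the 4 vehicle libraries, the 3 most abundant of those 21 binders were Nbl1, a DAN family member, the follistatin-related Fstl1 and tsukushi (Tsku), although Fstl3 stood above Tsku in the means of BMP4 and vehicle_a cultures. Nbl1 had 95.4 and 103.8 TPM in BMP4 libraries against 82.4 and 85.2 TPM in vehicle_a libraries, and 64.6 and 58.7 TPM in BMP6 libraries against 48.8 and 48.5 TPM in vehicle_b libraries. It was thus several times more abundant than Twsg1, and its stimulated and vehicle libraries did not overlap in either experiment. Of the tested loci, 10.3% showed that upward pattern for BMP4 and 10.6% for BMP6. The blocked log2 change of Nbl1 over both BMPs, 0.29 (SE 0.03), missed the threshold (limma adjusted p = 0.0527). Vehicle_b cultures held less Nbl1 (log2 change −0.78) and Fstl1 (−1.52) and more Tsku (1.27) than vehicle_a cultures, with limma adjusted p = 0.00869, 0.00415 and 0.032. That comparison called 27.2% of all loci.

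None of the 2 tested genes among 15 other BMP and GDF ligands was called for BMP4, BMP6 or both, with or without the block. Gdf11, a ligand that signals through activin-type receptors, was the most abundant of them, at 7.74 and 14.2 TPM in BMP4 libraries, 8.05 and 17.1 TPM in vehicle_a libraries, 8.35 and 6.11 TPM in BMP6 libraries and 7.93 and 6.30 TPM in vehicle_b libraries. Its BMP4 and vehicle_a ranges overlapped, as did those of BMP6 and vehicle_b. The next 2, Gdf9 and Bmp8b, were at most 0.819 and 0.935 TPM in any library. Gdf1 had no locus of its own in the table.

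The proteases and convertases that act on these proteins were not called for BMP4, BMP6 or both in either fit (5 of 7 and 3 of 4 tested). Of 5 tested genes linked to chordin cleavage, vehicle_b cultures held less Bmp1 (the chordinase itself, log2 change −0.93), Pcolce (a helper protein of that protease, −2.78) and Htra3 (a secreted serine protease, −3.07) and more Htra1 (1.23) than vehicle_a cultures, with limma adjusted p = 0.00869, 0.00593, 0.00398 and 0.0292. Of all loci, 27.2% were called between these vehicle cultures. Bmp1 had 16.5 and 17.6 TPM in vehicle_b libraries against 34.9 and 30.9 TPM in vehicle_a libraries. Of the convertases that cut the ligand precursors, vehicle_b held less Furin (log2 change −1.14) and Pcsk7 (−0.61), with limma adjusted p = 0.0213 and 0.0219. Pcsk6, the most abundant by the mean over the 4 vehicle libraries though below Furin in the mean of vehicle_a, had 74.9 and 82.2 TPM in vehicle_b and 67.8 and 54.3 TPM in vehicle_a libraries and was not called.

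The loci most like Nog in their pattern over the 8 libraries, by Pearson correlation of log2(TPM + 0.5), were Ube2j1 (r = 0.988), Amotl2 (0.985) and Vgll4 (0.984). Amotl2 had 54.2 and 74.1 TPM in BMP4 libraries against 34.8 and 44.4 TPM in vehicle_a libraries, and 41.6 and 40.2 TPM in BMP6 libraries against 20.4 and 19.2 TPM in vehicle_b libraries. The 8 points share isolations and fall into the 2 experiments, so these values only describe likeness.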

How the data were processed

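RNA from 8 cultures (500 ng each) went into strand-specific poly(A) libraries read single-end for 50 nt, per the labels' protocols. The submitters' processing notes name STAR 2.7.11a, SAMtools 1.17, StringTie 2.2.1 and GRCm39. The authors computed the deposited TPM values, FPKM values and coverage signal with StringTie, using an annotation they had merged themselves and no strand option, per the file headers. Reads of overlapping and near-identical genes may therefore be misplaced, and TPM keep no depth. The joint TPM table equalled each library's own table in all 55223 loci (tolerance 1e-05).

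Samples were grouped by the treatment in their labels. A linear model with 4 group means and a variance trend (limma 3.58.1, R 4.3.3) was fitted on the log2(TPM + 0.5) scale to 16908 loci whose mean reached 0.5 TPM. Two-sided p-values were adjusted over all of them (Benjamini-Hochberg, threshold 0.05). The 5 comparisons set each BMP against its own vehicle, averaged and subtracted these changes, and set vehicle_b against vehicle_a. Reads for voom were estimated as coverage times length over 50; floors from reads cover counting error only. The scripts were tested on simulated data. Named genes were all members, listed genes called in a BMP comparison, the 3 most abundant per list in vehicle libraries, and the 3 loci most like a member; some of the genes this rule or the marker lists name are not reported here. The members and lists were chosen with earlier results of these data known.

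The labels give both libraries of an isolation the same isolation number, which pairs them, and their deviations from the group means correlated across loci at 0.707 (isolations 48 and 54) and 0.455 (isolations 75 and 77). The 29 alternative settings covered the block, pseudocounts, filters, scaling, FPKM, voom and libraries left out. Promoter windows came from the RefSeq table of GRCm38.p6, which held 6 of the 10 members.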

Additional observations from a re-analysis of the deposited data

How the results depend on the processing

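The blocked fit and voom with the block raised the number of called members for both BMPs from 0 to 1, as did the block with the filter at 0.1 TPM, and for BMP4 the block and voom with the block did so. For BMP6 only voom with the block gave 1. That member was Nog each time, and the block changed no other call of a member. Leaving out libraries or isolations gave 0 to 1 called members for both BMPs and 0 to 6 for vehicle_b against vehicle_a, where no filter beyond a value above 0 gave 2 (Bmp6 and Fst). In the fit without the block, the BMP6 response minus the BMP4 response of Nog, 0.33, turned to −0.018 with a pseudocount of 2. It ranged there from −0.149 to 0.811 with libraries left out. With libraries left out, the mean log2 change over both BMPs ranged from −0.029 to 0.216 for Bmp6, −0.40 to 0.529 for Chrd, −0.323 to 0.58 for Grem1, −0.111 to 0.129 for Bmper and −0.121 to 0.481 for Fst. The causes of these turns were not tested. Every other setting kept the sign of these values, and Nog kept a positive change over both BMPs in all settings, from 1.166 with a pseudocount of 2 to 1.88 with voom without the block. The block with the 0.1 TPM filter and, for vehicle_b against vehicle_a, the fits without the block that left out both libraries of an isolation were chosen after seeing the data. With 2 libraries per group, and few reads for Bmp2, Bmp4 and Bmp7, small changes of the ligands could not be detected.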

Other observations

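The split of Chrd between its 3 annotated transcripts moved from library to library. The transcript ENSMUST00000232646.2 took 77.7% and 23.5% of Chrd in BMP4 libraries and 36.2% and 31.8% in vehicle_a libraries, and 80.7% and 0% in BMP6 libraries and 0% in both vehicle_b libraries. Chrd was at most 0.692 TPM in the last 4, and single reads of 50 nt can seldom be given to 1 of several transcripts, so these shares are uncertain.

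The loci most like the other tested members over the 8 libraries, with r of 0.981 or higher, were Fam76a, Kitl and Prkcb for Bmp6, Ypel3, Patj and Reep1 for Chrd, and Sco2, Kat5 and Slc4a11 for Grem1. For Bmper they were the RNA-processing genes Srek1, Prpf4b and Srsf2, for Fst Hsf2bp and Cpeb3, and for Twsg1 Ube2b, Irx3 and Mrpl17. Kitl, which encodes the ligand of the receptor KIT, had 4.60 and 3.04 TPM in vehicle_b libraries against 0.608 and 0.528 TPM in vehicle_a libraries. Most of this likeness lies between the 2 experiments.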
